A study of Mus musculus with 28 samples.

Results

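The glucocorticoid receptor (GR, encoded by Nr3c1) binding sites described here are those that lay outside every stretch of H3K27ac, the acetylated histone mark of active promoters and enhancers, in mouse bone marrow-derived macrophages. They were the GR peaks that shared no base with any H3K27ac peak of the same study, and they numbered 3955 of 8394 GR peaks, or 47.1%. The other 4439 GR peaks, which overlapped an H3K27ac peak by at least 1 bp, served as the set for comparison. Below, the 3955 are called the outside peaks and the 4439 the overlapping peaks.

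The macrophages came from male C57BL/6 mice aged 8 to 10 weeks and were grown from bone marrow for 5 days in L-cell conditioned medium. They were then given corticosterone (Cort, 500 nM, the natural glucocorticoid of mice), dexamethasone (Dex, 100 nM, a synthetic glucocorticoid), the cytokine IL4 (10 ng/ml) or vehicle, for 24 h; the labels of the H3K27ac vehicle libraries give no time. All cells were unmodified wild type cells of 1 strain and 1 sex. GR ChIP-seq had 4 Cort, 4 Dex, 3 IL4 and 4 vehicle libraries, and H3K27ac ChIP-seq had 3 libraries of each. Per the labels, GR replicates 1 and 2 of Cort, Dex and vehicle were batch 1, and replicates 3 and 4 with all IL4 libraries were batch 2. The title names the study's question as the common ground of glucocorticoid and IL4 programming of macrophages, and the outside peaks bear on where GR reads lay away from active chromatin. Nothing states that libraries came from separate animals, so p-values measure the spread between libraries only.

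GR is a nuclear receptor that stays in the cytoplasm until a glucocorticoid binds it, then enters the nucleus and binds DNA at a pair of inverted half-sites, or through other transcription factors. In macrophages most of its sites are known to lie in enhancers that PU.1, C/EBP and AP-1 have already opened, where GR raises anti-inflammatory genes and lowers cytokine genes. ChIP-seq peaks can also arise where reads pile up for reasons other than the protein under study, such as sequences with many copies in the genome. The H3K27ac libraries carried the mark at macrophage genes: all 12 of 12 macrophage marker genes had an H3K27ac peak within 1 kb of the gene. In vehicle libraries the highest such peak of each gene had 9.74 to 37.8 counts per 1000000 reads in H3K27ac peaks (CPM) and per kb. The median over all single H3K27ac peaks was 4.25. A highest value is favoured where a gene has many peaks, and Adgre1 had 21 while Cd68 had 1. An H3K27ac peak within 1 kb stood at 0 of 7 fibroblast, 0 of 5 mast cell and 1 of 6 erythroid marker genes. The same held at 3 of 8 lymphocyte, 3 of 5 dendritic cell and 5 of 8 neutrophil marker genes. By their highest peak, the dendritic cell gene Xcr1 (31.1 CPM per kb) and the B cell genes Ms4a1 (23.7) and Cd79a (15.5) reached the macrophage range. Pax5, Cd3e and Siglech were at 0. The part of these other cell types in the results was not tested.

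Few outside peaks touched a gene start. H3K27ac marks active promoters, so the definition itself takes GR peaks at such promoters out of the outside set. In the RefSeq promoter windows, which run from 250 bases before a gene start to 50 bases after it, 19 outside peaks (0.480%) had any base, against 229 overlapping peaks (5.16%). The 250 upstream bases of 3 of these windows are shown, from RefSeq GRCm38.p6 and read 5′ to 3′ along the gene, because they show the contrast among the outside peaks between sequence that recurs at other gene starts and sequence that does not; capitals mark the bases inside the GR peak.
Gm9758: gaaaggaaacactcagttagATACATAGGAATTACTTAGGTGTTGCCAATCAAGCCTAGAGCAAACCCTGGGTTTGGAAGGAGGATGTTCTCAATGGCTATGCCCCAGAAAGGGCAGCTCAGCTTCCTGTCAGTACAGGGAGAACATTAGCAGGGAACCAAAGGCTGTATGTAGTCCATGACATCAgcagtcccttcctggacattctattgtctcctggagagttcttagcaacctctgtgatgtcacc
4931408C20Rik: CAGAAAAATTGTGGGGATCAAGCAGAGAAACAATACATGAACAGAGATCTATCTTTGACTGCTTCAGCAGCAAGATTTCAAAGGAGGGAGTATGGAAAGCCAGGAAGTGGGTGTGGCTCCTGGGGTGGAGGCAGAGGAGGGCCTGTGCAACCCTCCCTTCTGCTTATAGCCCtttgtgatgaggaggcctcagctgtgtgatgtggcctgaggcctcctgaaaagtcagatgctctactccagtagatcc
Prdm4: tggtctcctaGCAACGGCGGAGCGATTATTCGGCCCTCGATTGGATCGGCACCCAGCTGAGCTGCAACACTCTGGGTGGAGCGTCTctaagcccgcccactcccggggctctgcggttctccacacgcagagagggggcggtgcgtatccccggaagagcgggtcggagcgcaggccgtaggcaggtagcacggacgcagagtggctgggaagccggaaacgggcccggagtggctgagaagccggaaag

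The Gm9758 window (chr5:14914840-14915139, minus strand) held the whole outside peak chr5:14914954-14915119, 166 bp long. Of all 20-base words in that window, 80.4% also stood in the window of another gene, a given word in up to 24 other genes. In the window of 4931408C20Rik, met by the outside peak chr1:26687539-26687741 over 172 bases, 15.3% of the words recurred, and in that of Prdm4, a zinc finger gene met by the outside peak chr10:85917151-85917226 over 76 bases, 0% did. The GR half-site (AGAACA, or TGTTCT on the other strand, both strands searched) stood in 2 of the 21 windows that outside peaks touched (9.52%), against 19.4% of the 268 windows that overlapping peaks touched and 6233 (19%) of all 32851 windows. The capitals of Gm9758 hold 2 half-sites, 1 in each direction, and those of the other two genes hold none. The full site, AGAACA followed by any 3 bases and TGTTCT, a palindrome that contains both half-sites, was in none of the 21 windows and in 3 of all windows. No genome came with the data, so repeats and motifs inside the outside peaks that lie elsewhere were not analysed here.

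Of the outside peaks, 2 lay on a microRNA whose mature strand RefSeq lists; they are shown because the first belongs to a set with a distinct library profile described further on. Capitals mark the seed, bases 2 to 8, which the pair does not share.
mmu-miR-6236: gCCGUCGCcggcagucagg
mmu-miR-682: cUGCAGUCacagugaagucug
mmu-miR-6236 lies at chr9:110281353-110281371 on the plus strand, inside the outside peak chr9:110281218-110281399. mmu-miR-682 lies at chr13:75645119-75645139 on the plus strand, inside the outside peak chr13:75645054-75645199.

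The outside peaks were shorter and held fewer reads than the overlapping peaks. Their median length was 103 bp, against 139 bp in the overlapping peaks, and 247 of them (6.25%) reached 200 bp, against 1476 overlapping peaks (33.3%). The shortest length in the GR peak table, 76 bp, was that of 652 outside peaks (16.5%) and of 602 overlapping peaks (13.6%). The median outside peak held a mean of 6 reads per GR library, against 10.4 in the overlapping peaks, and 1552 outside peaks (39.2%) averaged under 5 reads, against 479 overlapping peaks (10.8%). At the upper end the sets were closer, with 103 outside peaks (2.60%) at a mean of 100 reads or more, against 137 overlapping peaks (3.09%). The highest mean was 861583 reads in the outside peaks, against 17835 in the overlapping peaks, so the outside set reached both the faintest and the strongest signals of the table.

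**Figure D1:**
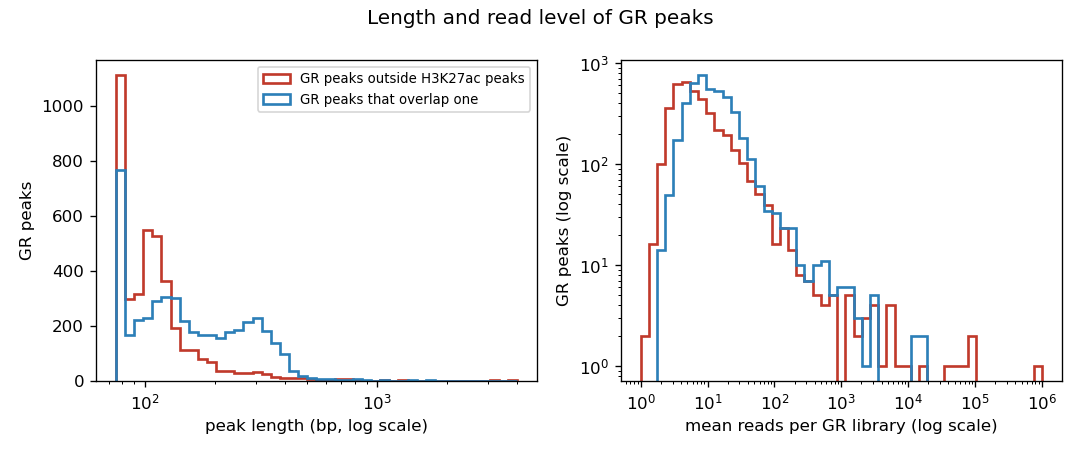
Number of GR peaks by length (left, in bp) and by mean reads per GR library (right), for the 3955 outside peaks (red) and the 4439 overlapping peaks (blue); both horizontal axes and the vertical axis on the right are logarithmic. The red curve is higher near the shortest lengths and lowest read levels, and it also extends to the far right, where the strongest peak averaged 861583 reads.

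The peak table marks each peak TRUE or FALSE in a column headed filtered, whose rule is not given in the sources used here. Of the outside peaks 678 (17.1%) were TRUE, against 1618 overlapping peaks (36.4%). Outside peaks marked TRUE were 78 to 496 bp long with a median of 163 bp, and their median was 24.0 reads per library. Those marked FALSE had a median length of 98 bp and a median of 5.13 reads, yet they included all 23 outside peaks longer than 496 bp. Both strong and faint peaks were therefore marked FALSE, and the very strongest outside peak was among them.

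By place, the outside peaks lay farther from genes. Of them 1901 (48.1%) fell inside the span of a protein-coding gene, against 2490 overlapping peaks (56.1%), and 929 (23.5%) lay over 50 kb from any such gene, against 533 overlapping peaks (12%). With RefSeq genes of every kind, 58.8% of the outside peaks and 65.8% of the overlapping peaks lay inside a gene; the RefSeq table gives gene spans, so exons, introns and UTRs were not told apart. On chromosome Y all 24 of 24 GR peaks (100%) were outside peaks, and on chromosome X 187 of 255 (73.3%) were, while the share on autosomes ran between 35.6% on chromosome 19 and 58.0% on chromosome 5. The gap to the nearest H3K27ac peak had a median of 16129 bp. It was 100 bp or less for 67 outside peaks, 1000 bp or less for 412 (10.4%), 5000 bp or less for 1188 (30.0%) and 50000 bp or less for 2671 (67.5%).

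At the edge of the definition, the outside peaks nearest to H3K27ac were chr1:121334381-121334460 and chr9:123717642-123717763, each 1 bp away, and chr9:40622946-40623129, 2 bp away, with means of 4.73, 5.73 and 6.47 reads. The overlapping peaks that shared fewest bases with H3K27ac were chr1:86343717-86343792 with 1 shared base, and chr14:70792738-70792813 and chr19:34493797-34493872 with 2 each, at means of 4.07, 5.80 and 5.73 reads. Peaks on both sides of the edge were therefore alike in reads, and 10 outside peaks and 11 overlapping peaks lay within 10 bp of it.

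The GR libraries held 900063 to 1981582 reads in GR peaks. Outside peaks took 78.4% to 91.7% of them, and 38 outside peaks among the 84 GR peaks with most reads (the top 1%) took 68.8% to 89.2% by themselves. The strongest, chr2:98666249-98667322 (1074 bp), took 45.4% to 59.2% of every library, the 3 strongest 55.6% to 72.3% and the 12 strongest 66.5% to 86.4%. In Cort replicates 1 to 4 the strongest peak had 994805, 635897, 941351 and 841643 reads, and in Dex replicates 1 to 4 it had 651477, 636244, 712020 and 1084734. It had 874156, 1095312 and 1061938 reads in IL4 libraries and 508833, 590013, 1122405 and 1172918 in vehicle libraries. All treatments overlapped at this peak.

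The 12 strongest outside peaks included 4 within chr2:98662242-98667322, which took 51.4% to 66.9% of reads in GR peaks and held no overlapping peak. Others were chr14:19415724-19419680, the longest GR peak at 3957 bp, chr12:3109845-3110150, and chr6:103649023-103649321 inside Chl1, a neural cell adhesion gene. Further ones were chr9:35305191-35305607 in the noncoding gene Gm33838, chr9:3025466-3025635, chr9:3032328-3032748, chr9:24541988-24542191, and chr17:39843028-39846336 beside Rn18s-rs5, a ribosomal RNA pseudogene. The SD over the 15 libraries of a peak's log2 share of the reads of these 12 was highest at the Rn18s-rs5 peak (0.451), followed by chr9:24541988-24542191 (0.205), the Chl1 peak (0.178) and chr2:98665018-98665208 (0.140); at the strongest peak, which holds most of those reads, it was 0.013.

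Outside peaks also stood in dense runs. In chr5:14903373-15693710, a stretch that holds Gm9758, all 92 of 92 GR peaks were outside peaks, 44 of them marked TRUE, with means of 5.80 to 47.5 reads. At the start of chromosome 9 (chr9:3004514-3038286) 19 of 43 GR peaks were outside peaks and took 2.47% to 3.29% of all reads in GR peaks, at means of 284 to 9782 reads. Such runs also stood at the start of chromosome 17 (chr17:3005205-3080870, 26 of 33 peaks) and of chromosome 4 (chr4:3050084-3083092, 16 of 17 peaks). The stretch chr17:39843028-39848803 at Rn18s-rs5 had 4 of 4 and took 0.307% to 1.17% of reads.

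Cort replicate 4 stood apart from all other libraries at the faint outside peaks. Its median outside peak held 26 reads, against 2 to 5 in the other 14 libraries. It alone held over 50% of all reads of 1439 outside peaks (36.4%) and of 369 overlapping peaks (8.31%), while no other library did so for more than 3 outside peaks. The reads of these 1439 peaks summed to 66398 per 1000000 reads in GR peaks (RPM) in Cort replicate 4, against 1396 to 7547 in the others. They were 76 to 182 bp long, 49.5% lay in coding genes, and 1 of the 1439 was marked TRUE. In the test described further on, 199 of them had enough reads to be tested and none was called in the steroid comparison with TMM scaling, and 1 was called higher with library totals.

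A second set followed the batch. Chosen after the values were seen, as outside peaks whose mean RPM in batch 1 was at least 4 times that in batch 2 and whose mean was at least 5 reads in batch 1, it had 535 outside peaks and 351 overlapping peaks. The rule used neither IL4 nor Cort replicate 4. The 535 summed to 5436 to 11546 RPM in the 6 batch 1 libraries and to 673 to 770 in the 5 batch 2 libraries the rule used; IL4 libraries, which it did not use, had 682 to 760 and Cort replicate 4 had 644. Of the 535, 406 (75.9%) lay in coding genes, as did 346 (98.6%) of the 351 overlapping peaks, so this trait was not particular to outside peaks. Of the 1981 outside peaks left without either set, 39.5% did. The 535 had a median gap to H3K27ac of 3.31 kb. The genes with most of them were Adgre1, which encodes the macrophage marker F4/80 (12 peaks), the membrane protein gene Itm2b, the lysosomal gene Lamp1 and the scavenger receptor gene Cd36 (6 each), and the cathepsin gene Ctss, the glycolysis gene Pkm and the actin capping gene Capg (5 each).

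At chr4:116699219-116699532, inside the peroxiredoxin gene Prdx1, the counts were 155, 266, 5 and 10 in Cort libraries, 219, 250, 2 and 5 in Dex, 4, 5 and 5 in IL4, and 95, 241, 3 and 9 in vehicle. At chr8:13173805-13173961, inside Lamp1, they were 38, 39, 1 and 1 in Cort, 35, 43, 1 and 6 in Dex, 0, 0 and 0 in IL4, and 17, 35, 5 and 2 in vehicle. In each treatment with libraries of both batches, replicates 1 and 2 were high and replicates 3 and 4 low. Within a batch the treatments overlapped at the Prdx1 peak. At the Lamp1 peak both Cort libraries of batch 1 lay above both vehicle libraries in raw reads, which are not scaled for depth. These Cort libraries held 1758222 and 1206794 reads in GR peaks, against 900063 and 1073478 in the vehicle libraries. IL4 libraries, at 0, lay below all others of batch 2 at the Lamp1 peak. Other such peaks lay in H2-D1, a class I antigen presentation gene (chr17:35266894-35267362), and in Spp1, which encodes osteopontin (chr5:104440269-104441039). Comparisons of steroid with vehicle had both batches on both sides, whereas IL4 and batch 2 cannot be told apart at these peaks from IL4 libraries alone.

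**Figure D2:**
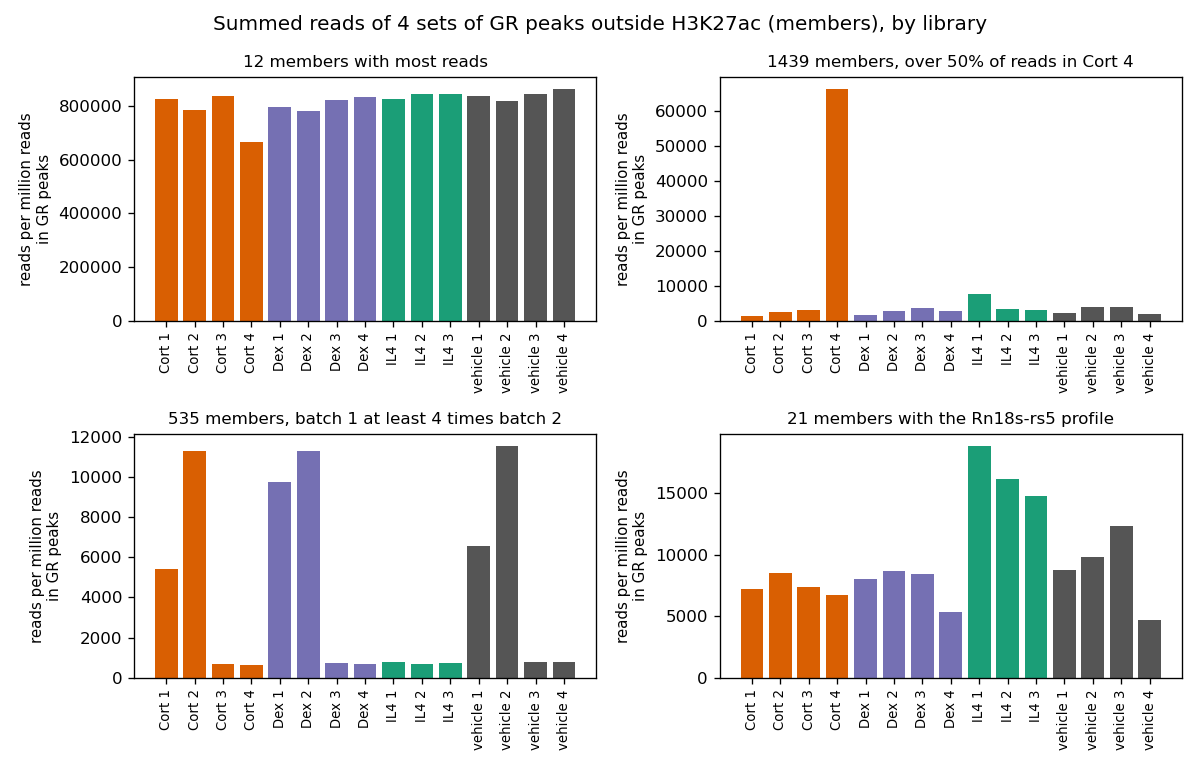
Summed RPM, reads per 1000000 reads in GR peaks (bars, 1 per GR library) for 4 sets of outside peaks: the 12 strongest, the 1439 with over 50% of their reads in Cort replicate 4, the 535 with batch 1 at least 4 times batch 2, and the 21 with the Rn18s-rs5 profile. The first set is nearly level over libraries except in Cort replicate 4, the second is high in Cort replicate 4 (66398), the third in the 6 batch 1 libraries (5436 to 11546) and the fourth in IL4 libraries (14795 to 18866).

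Relative to the overlapping peaks, the outside peaks took fewer reads after steroid. With the top 1% of GR peaks set aside, the log2 ratio of reads in outside peaks to reads in overlapping peaks was −1.22, −1.37, −0.75 and −0.42 in Cort libraries and −1.39, −1.32, −1.06 and −1.10 in Dex libraries. It was 0.01, 0.01 and 0.17 in IL4 libraries and −0.18, −0.17, 0.14 and 0.99 in vehicle libraries. All 4 Cort and all 4 Dex libraries lay below every vehicle library, and IL4 libraries lay within the vehicle range. The means were −0.94 ± 0.44 for Cort, −1.22 ± 0.16 for Dex, 0.06 ± 0.09 for IL4 and 0.20 ± 0.55 for vehicle (SD over 4, 4, 3 and 4 libraries), which put Cort 1.14 and Dex 1.41 log2 units below vehicle and IL4 0.13 below it.

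The reads behind the ratio, not scaled for depth, were as follows. Reads in the outside peaks numbered 39727 to 178058 in Cort libraries, 34346 to 44744 in Dex, 51797 to 56811 in IL4 and 26259 to 57887 in vehicle, so Cort and Dex libraries overlapped vehicle libraries over both batches; within batch 2, Dex (34346 and 44744) lay below vehicle (57887 and 50601). Reads in the overlapping peaks numbered 71073 to 237673 in Cort libraries and 71420 to 103827 in Dex, all above the 25463 to 52448 of vehicle libraries, while IL4 libraries had 45987 to 56367. The highest Cort values in both ranges were those of replicate 4; without it the Cort difference was −1.31. Within batch 1 the difference was −1.12 for Cort and −1.18 for Dex, and within batch 2 it was −1.15 for Cort, −1.65 for Dex and −0.50 for IL4. With the top 1% of peaks kept in, it was −0.65 for Cort and −0.50 for Dex.

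**Figure D3:**
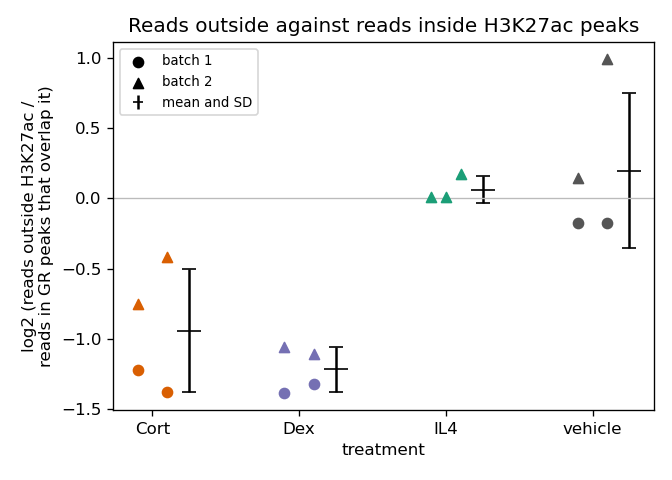
Log2 ratio of reads in outside peaks to reads in overlapping peaks, top 1% of GR peaks set aside, for each GR library (circles batch 1, triangles batch 2) with the mean and SD beside each treatment. Cort (mean −0.94) and Dex (mean −1.22) libraries lie below all vehicle libraries (mean 0.20), and IL4 libraries (mean 0.06) lie among them.

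Peak by peak, a call of steroid response in the outside peaks depended on how libraries were put on a common scale. With edgeR's quasi-likelihood test on all GR peaks with enough reads, 1566 outside peaks (39.6%) and 3617 overlapping peaks (81.5%) could be tested; all 678 outside peaks marked TRUE were among the 1566, and 2389 outside peaks were not tested. With TMM scaling, which lines libraries up on the bulk of peaks, the mean of Cort and Dex was called higher than vehicle at 19 outside peaks and lower at 824 (adjusted p under 0.05), while 15.7% of all tested GR peaks were called higher and 19.3% lower. As shares, 1.21% of tested outside peaks were called higher and 52.6% lower, against 22% and 4.81% of overlapping peaks. With scaling by library totals, 56 outside peaks were called higher and 44 lower, beside 38.2% and 0.926% of all tested peaks, so 3.58% of outside peaks and 53.2% of overlapping peaks were called higher. The 19 were all among the 56 and the 44 all among the 824, and no peak was called in opposite directions, though 43 of the 824 had a log2 fold change above 0 with library totals.

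Changing the scale moved both sets together. The median log2 fold change was −1.08 in outside peaks and 0.38 in overlapping peaks with TMM, and −0.11 and 1.27 with library totals, and over all tested peaks it was 0.09 and 0.96. Among tested peaks the outside ones thus lay about equally far under the overlapping ones on both scales. With no filter on low counts, over all 3955 outside peaks, the TMM medians were closer: −0.23 in outside peaks and 0.58 in overlapping peaks for steroid, and 0.52 and 0.65 for Cort. TMM factors ranged from 0.392 in vehicle replicate 4 to 1.72 in Dex replicate 2. A population of cells was sampled, so fewer cells with GR bound at a site cannot be told apart from less binding per cell.

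**Figure D4:**
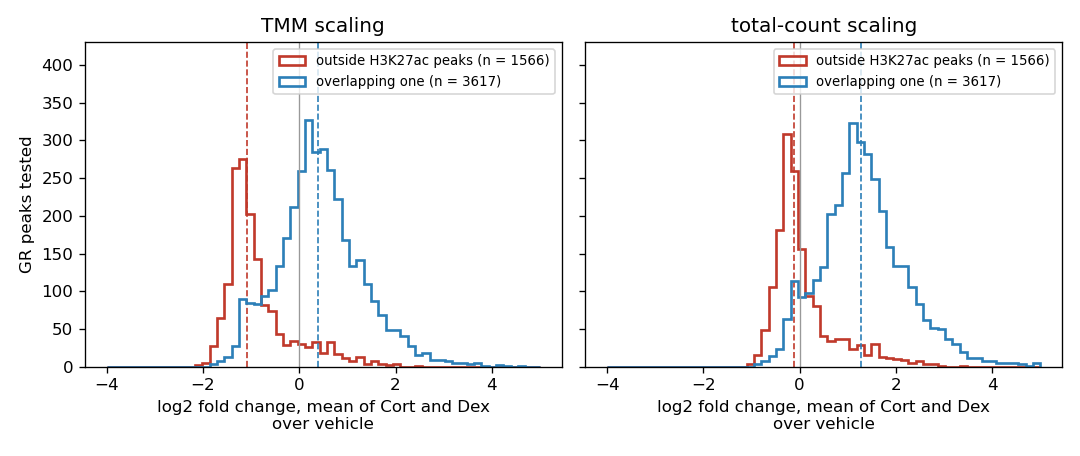
Number of tested GR peaks by log2 fold change of the mean of Cort and Dex over vehicle, for outside peaks (red, n = 1566) and overlapping peaks (blue, n = 3617), with TMM scaling (left) and library totals (right); dashed lines are medians. The red median is −1.08 on the left and −0.11 on the right, the blue one 0.38 and 1.27, so the distance between the sets is kept while 0 moves.

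Each steroid gave a like count. For Cort with TMM, 11 outside peaks were called higher and 634 lower, beside 12.8% and 14.8% of all tested peaks, and for Dex 19 were higher and 692 lower, beside 14.7% and 15.6%. With library totals Cort gave 51 higher and 21 lower, beside 30% and 0.463%, and Dex 56 higher and 23 lower, beside 37.7% and 0.482%. The doses of the steroids differ, so their counts are set side by side only. With no filter on low counts, where faint peaks enter too, Cort gave 11 higher and 136 lower (beside 7.14% and 1.83% of 8394 peaks), Dex 20 and 289 (10.4% and 4.04%) and their mean 20 and 444 (10.8% and 6.11%). Without vehicle replicate 4 the steroid comparison gave 20 higher and 469 lower with TMM, beside 833 and 578 of all 5149 tested peaks, and without Cort replicate 4 it gave 18 higher and 1010 lower, beside 844 and 1452 of 5018. Batch 1 alone gave 20 higher and 513 lower, beside 751 and 805 of 3975, and batch 2 alone gave none with edgeR, where 649 outside peaks had an unadjusted p under 0.05.

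The 19 outside peaks higher with steroid under both scalings were a small group, longer than most outside peaks. They were 77 to 336 bp long with a median of 246 bp, against 103 bp over all outside peaks, and 13 of the 19 were marked TRUE. Their means were 5.20 to 16.7 reads per library, none was among the densest 1% of peaks, and Cort replicate 4 held 4.41% to 17.9% of their reads. Of the 19, 8 lay inside a coding gene, none touched a promoter window, and 5 lay under 1000 bp from an H3K27ac peak. Their log2 fold changes were 1.10 to 2.48 with TMM and 2.00 to 3.45 with library totals, and at 8 of the 19 every steroid library stood above every vehicle library in TMM-scaled CPM. Summed over the 19, the values were 170, 273, 146 and 181 in Cort libraries, 320, 291, 199 and 265 in Dex, 63.8, 62.4 and 44.9 in IL4, and 35.6, 41.0, 39.7 and 34.8 RPM in vehicle; since these peaks were chosen by this comparison, the sums only describe it.

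The largest change among them was at chr4:135189737-135190016, 11.7 kb from Runx3, a gene of the Runx transcription factor family. It had 11, 19, 13 and 32 reads in Cort libraries, 27, 20, 19 and 42 in Dex, 4, 2 and 6 in IL4, and 0, 2, 1 and 5 in vehicle. Every steroid library had more reads than every IL4 and vehicle library, and in TMM-scaled CPM 7 of 8 stood above every vehicle library. In TMM-scaled CPM it averaged 9.95 ± 5.65 in Cort, 13.9 ± 4.36 in Dex, 2.86 ± 1.59 in IL4 and 2.33 ± 2.91 in vehicle (SD). The log2 fold change of steroid over vehicle was 2.48 (SE 0.59, adjusted p = 0.00446, edgeR) with TMM and 3.45 (adjusted p = 0.000241, edgeR) with library totals.

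At chr11:110979002-110979247, inside Kcnj16, an inward rectifier potassium channel gene, Cort libraries had 16, 10, 16 and 25 reads, Dex 23, 8, 19 and 34, IL4 7, 9 and 5, and vehicle 1, 2, 4 and 3. All steroid libraries were above all vehicle libraries, and IL4 overlapped the lowest Dex library. The log2 fold change was 1.97 with TMM (SE 0.41, adjusted p = 0.00198, edgeR). At chr4:97814519-97814820, inside Nfia, which encodes a nuclear factor I transcription factor, Cort had 18, 21, 17 and 28 reads, Dex 28, 26, 19 and 54, IL4 5, 11 and 10, and vehicle 3, 4, 2 and 4. Again no steroid library overlapped vehicle, and IL4 libraries lay between them, with a log2 fold change for steroid of 1.91 (SE 0.42, adjusted p = 0.00275, edgeR). At chr11:43544188-43544301, inside the cyclin-like gene Ccnjl, Cort had 11, 12, 11 and 5 reads, Dex 17, 8, 9 and 13, IL4 4, 8 and 3, and vehicle 1, 1, 2 and 1, with a log2 fold change of 2.05 (SE 0.48, adjusted p = 0.00432, edgeR).

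Of the 5 nearest to H3K27ac, chr12:32605402-32605676 ended 3 bp short of an H3K27ac peak and chr1:35816145-35816415 ended 8 bp short of one. The first had 31, 24, 19 and 25 reads in Cort, 31, 19, 26 and 30 in Dex, 3, 11 and 3 in IL4, and 4, 5, 5 and 5 in vehicle, and steroid libraries did not overlap the rest. The second had 25, 25, 6 and 16 reads in Cort, 20, 33, 14 and 32 in Dex, 1, 2 and 3 in IL4, and 2, 1, 6 and 5 in vehicle, where the third Cort library equalled the highest vehicle library. Their log2 fold changes were 1.40 (adjusted p = 0.00754, edgeR) and 1.54 (adjusted p = 0.0145, edgeR). The H3K27ac peak beside the second, chr1:35816423-35816700, was itself higher with Dex (log2 fold change 4.24, SE 0.86, adjusted p = 0.0129, edgeR) and had 3.70 with Cort (adjusted p = 0.0616, edgeR; 0.00109 with replicate number as a block). The one beside the first, chr12:32605679-32606034, had 2.20 with Dex (adjusted p = 0.105, edgeR, and 0.00916 with replicate number as a block). Of the 15 tested H3K27ac peaks nearest the 19 within 50 kb, 2 were called higher with Dex and 0 with Cort. Over all tested H3K27ac peaks 2.9% and 1.18% were. Under the block 4 were higher with Dex and 2 with Cort, beside 9.91% and 6.44% of all.

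Among the rest, chr13:109641635-109641952 lay inside Pde4d, a cAMP phosphodiesterase gene, with 19, 23, 14 and 38 reads in Cort, 21, 30, 18 and 38 in Dex, 3, 6 and 7 in IL4, and 0, 3, 3 and 10 in vehicle. chr4:57275404-57275671 lay inside the tyrosine phosphatase gene Ptpn3, with 26, 16, 32 and 22 reads in Cort, 27, 18, 18 and 33 in Dex, 8, 7 and 2 in IL4, and 2, 2, 8 and 8 in vehicle. In both, steroid libraries stood above vehicle libraries in reads, but in TMM-scaled CPM only 3 of 8 at Pde4d and 6 of 8 at Ptpn3 stood above every vehicle library. Others lay 69.3 kb from Rgs2, a regulator of G protein signalling, 31.5 kb from Rasgef1b and 121 kb from the potassium channel gene Kcnj2. With IL4 the 19 had log2 fold changes between −1.18 and 1.5 over vehicle, 12 of them above 0 and none called.

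Within batches all had the same sign, which their choice by a fit to these same libraries largely fixes. In batch 1 alone, 17 of the 19 had a value, all 17 above 0 and 13 called, and in batch 2 alone all 19 were above 0, none called and 7 with an unadjusted p under 0.05 (edgeR). With scaling by the overlapping peaks alone, all 19 were above 0 and 4 called. Of the 11 outside peaks higher with Cort, 8 were among the 19. The remaining 3 owed most of their reads to Cort replicate 4: chr6:72269841-72269960, 34.1 kb from Atoh8, had 1, 7, 6 and 175 reads in Cort, 1, 6, 6 and 3 in Dex, 18, 9 and 14 in IL4, and 0, 1, 8 and 1 in vehicle. chr9:106442419-106442528 inside Abhd14a had 213 and chr3:85176941-85177068 had 220 of their reads there; without that library only the last had enough reads to be tested, with a Cort log2 fold change of 0.25 (adjusted p = 0.762, edgeR) in place of 2.53 (adjusted p = 0.0422, edgeR).

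**Figure D5:**
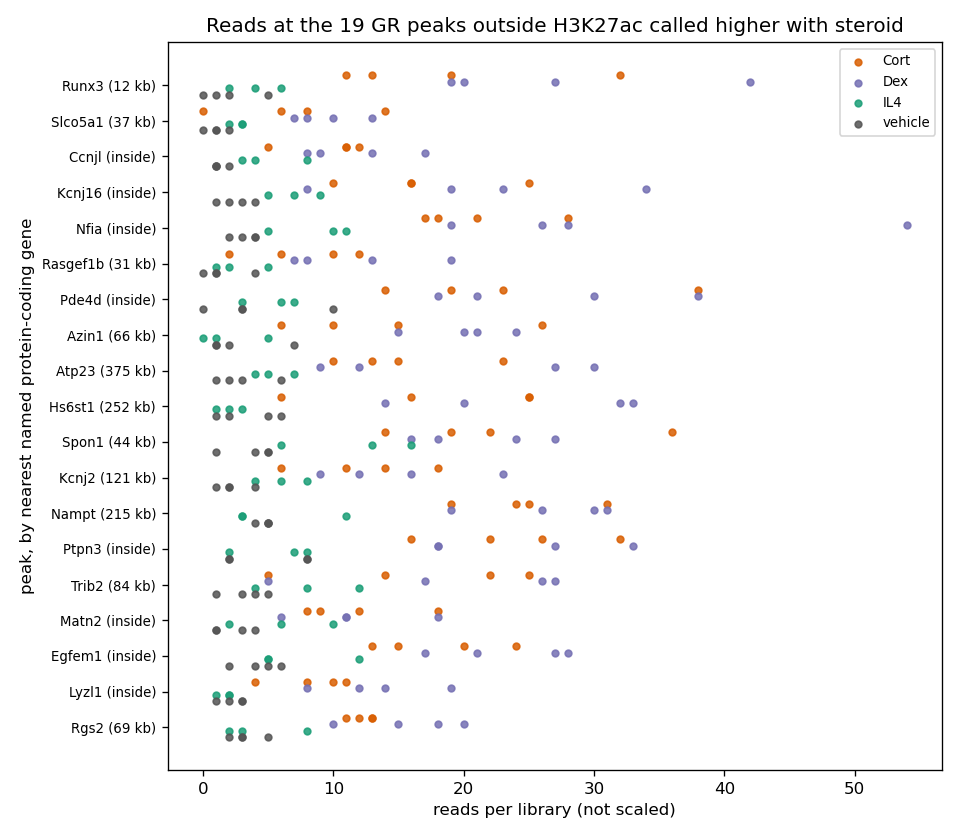
Reads per GR library, not scaled, at each of the 19 outside peaks called higher with steroid, with 1 row per peak named by its nearest protein-coding gene (distance in kb) and 1 point per library. Steroid points reach 38 (Cort) and 54 (Dex), IL4 points reach 16 and vehicle points 10.

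The 824 outside peaks called lower with TMM held the strongest outside peaks, along with 127 of the batch 1 set described above. They had a median of 21.8 reads per library and a median gap to H3K27ac of 28496 bp, 485 of them were marked TRUE, and 36 were among the densest 1% of GR peaks; 16 lay on chromosome Y and 29 on X. All of the 12 strongest outside peaks were among them, with log2 fold changes of −1.11 to −1.02 with TMM, against −0.13 to −0.06 and none called with library totals. Of the 92 peaks of the chromosome 5 run, 80 were called lower with TMM (median −1.22), and 1 with library totals (median −0.24).

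The 44 that were lower under both scalings were again a small group. At chr10:58231859-58232021, inside Duxf3, a double homeobox gene, Cort libraries had 20, 22, 21 and 18 reads, Dex 12, 15, 10 and 20, IL4 31, 41 and 33, and vehicle 14, 28, 42 and 41. In raw reads the lowest vehicle library, which was also the smallest, lay among the steroid libraries. In CPM it averaged 10.5 ± 1.10 in Cort, 7.29 ± 1.44 in Dex, 24.5 ± 3.12 in IL4 and 32.7 ± 14.3 in vehicle (SD), with a log2 fold change of −1.86 (SE 0.25, adjusted p = 0.000145, edgeR) with TMM and −0.87 (adjusted p = 0.00664, edgeR) with library totals. At chr2:105252931-105253093, inside the thioesterase family gene Them7, Cort had 13, 7, 18 and 16 reads, Dex 9, 12, 13 and 13, IL4 19, 16 and 24, and vehicle 14, 18, 33 and 29. Its log2 fold changes were −1.88 (adjusted p = 0.000145, edgeR) with TMM and −0.91 (adjusted p = 0.00616, edgeR) with library totals.

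No outside peak was called with IL4 in the fit with batch as a term. With edgeR 0 outside peaks were called in either direction, beside 0% of all tested peaks, 296 had an unadjusted p under 0.05, and DESeq2 called 3. With the replicate number as a block in place of batch, edgeR called 17 outside peaks higher and 216 lower. Over all 5183 tested peaks it called 31 and 346. That block set IL4 replicates 1 and 2, of batch 2, beside batch 1 libraries of the other treatments. IL4 and batch therefore cannot be told apart in those counts. The 5 smallest p-values, each with an adjusted p of 0.322 (edgeR), included 3 at peaks high in batch 1, chr17:43588628-43588707 in Pla2g7, a phospholipase gene, chr8:120673232-120673364 in the respiratory chain gene Cox4i1 and the Lamp1 peak above, with log2 fold changes of 3.69, −3.45 and −5.00. At the Pla2g7 peak Cort libraries had 15, 14, 0 and 0 reads, Dex 10, 18, 1 and 0, IL4 4, 4 and 3, and vehicle 6, 8, 0 and 0. All IL4 libraries were batch 2, where Cort, Dex and vehicle libraries had 0 or 1 read at this peak.

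A set of strong outside peaks had more reads in IL4 libraries and in 1 vehicle library. It was chosen after the values were seen, by likeness to the Rn18s-rs5 peak chr17:39847489-39848803, taken as Pearson's r of log2 RPM over the 15 libraries, as a description. That peak had 2591, 2081, 2437 and 2656 reads in Cort, 2004, 2127, 2163 and 2034 in Dex, 6266, 5742 and 5339 in IL4, and 1701, 2212, 5308 and 1829 in vehicle. Of the 103 outside peaks with a mean of at least 100 reads, 21 including itself had r of 0.908 or more and the next had 0.560; of the 137 such overlapping peaks 6 had r above 0.9. IL4 libraries and vehicle replicate 3 stood above all the rest at the 21, which their choice by likeness fixes.

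The 21 included chr9:110281218-110281399, the peak of mmu-miR-6236 shown above, with 179, 147, 124 and 142 reads in Cort, 109, 136, 124 and 106 in Dex, 430, 495 and 408 in IL4, and 89, 159, 380 and 127 in vehicle. They also included peaks inside Cdk8, a Mediator kinase gene (chr5:146260962-146261385), Camk1d, a calmodulin-dependent kinase gene (chr2:5379230-5379403), and the noncoding gene Gm36876 (chr11:109011625-109012110). At the last, Cort libraries had 901, 821, 851 and 1068 reads, Dex 685, 819, 840 and 629, IL4 2558, 3466 and 2991, and vehicle 582, 786, 1987 and 802. Its log2 fold change for IL4 over vehicle was 0.95 (SE 0.22, adjusted p = 0.322, edgeR), and over the 21 it was 0.35 to 0.97 with none called. Their summed RPM were 14795 to 18866 in IL4 libraries and 12355 in vehicle replicate 3.

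Few outside peaks had as their nearest gene one known to answer steroid, IL4 or inflammatory signals. GR peaks that meet H3K27ac at such genes are overlapping peaks by definition, so these counts are not independent of it. A peak was counted where its nearest named protein-coding gene was on a list and within 50 kb. For 35 genes that glucocorticoids are known to induce, 9 outside peaks were counted, against 51 overlapping peaks at 21 genes. The 9 lay at 7 genes (Anxa1, Fkbp5, Hif3a, Mt2, Tgm2, Tns1 and Zbtb16). Of the 9, 3 were tested; none was called higher with steroid and 1 lower with TMM. At 28 genes of the IL4 and STAT6 response there were 5 outside peaks at 3 genes (Ccl24, Tfec and Tiam1), against 29 overlapping peaks at 15 genes, and of 2 tested none was called higher and 1 lower. At 23 inflammatory genes there were 6 outside peaks at 4 genes (Ccl5, Cd40, Cxcl2 and Il1b), against 18 overlapping peaks at 8 genes, and of 4 tested none was called higher and 1 lower. Over all tested outside peaks 1.21% were called higher and 52.6% lower with TMM, beside 15.7% and 19.3% of all tested GR peaks. The calls in the lists are too few to set the listed genes apart from other outside peaks. These lists were chosen with earlier results of these data known.

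The called peak at Anxa1, which encodes the anti-inflammatory protein annexin A1, was chr19:20375235-20375328. It had 16, 14, 2 and 1 reads in Cort, 17, 17, 4 and 3 in Dex, 6, 4 and 2 in IL4, and 9, 26, 2 and 4 in vehicle, high in batch 1 of each treatment. Its log2 fold change for steroid was −1.30 with TMM (adjusted p = 0.0105, edgeR) and −0.37 with library totals (adjusted p = 0.463, edgeR). Near Ccl24, a chemokine gene of alternatively activated macrophages, chr5:135582453-135582582 had 14, 13, 15 and 3 reads in Cort, 8, 16, 14 and 11 in Dex, 3, 8 and 2 in IL4, and 2, 0, 7 and 1 in vehicle. Its log2 fold change was 1.30 with TMM (SE 0.59, adjusted p = 0.102, edgeR) and 2.17 with library totals (adjusted p = 0.0156, edgeR), so it passed only on the second scale.

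The share of H3K27ac peaks near outside peaks that were called with steroid was close to that of all H3K27ac peaks. Of 2292 such peaks within 50 kb, 2186 were tested among 59881. With Cort 26 were called higher and 6 lower (1.19% and 0.274%), beside 1.18% and 0.376% of all tested H3K27ac peaks, and with Dex 62 were higher and 57 lower (2.84% and 2.61%), beside 2.9% and 2.34%. Of 3897 tested H3K27ac peaks that overlapped a GR peak, 379 were called higher with Cort (9.73%) and 655 with Dex (16.8%). With the replicate number as a block, which paired the H3K27ac libraries, 112 of the nearest peaks were higher and 119 lower with Cort, beside 6.44% and 6.13% of all, and 200 were higher and 206 lower with Dex, beside 9.91% and 10.3% (edgeR). Under the block 30.3% of H3K27ac peaks that overlapped a GR peak were higher with Cort and 35.4% with Dex.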

How the data were processed

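GR and H3K27ac ChIP-seq libraries of mouse macrophages were analysed from 2 deposited tables of raw read counts per peak, made by the authors on mm10 peak coordinates; fastp, Bowtie2, SAMtools, MACS2 and featureCounts are named in the submitters' processing notes, without versions. Per the labels' protocols, GR chromatin was crosslinked with DSG and then formaldehyde, and H3K27ac chromatin with formaldehyde alone. Whether peaks were called per library or on pooled libraries is not given in the sources used here. Columns headed C were taken as vehicle, since the remaining columns name the other treatments. The H3K27ac input library was not used here. Sites and lists were chosen with earlier results of these data known.

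A GR peak was an outside peak when no H3K27ac peak shared 1 bp or more with it. Counts were tested with edgeR 4.0.16 (R 4.3.3, limma 3.58.1): filterByExpr by group, TMM scaling, quasi-likelihood F test over all 15 GR libraries with batch as a term, or over the 12 H3K27ac libraries, and Benjamini-Hochberg adjustment over all 5183 GR or 59881 H3K27ac peaks tested, called under 0.05. The biological coefficient of variation of the GR fit was 0.439. IL4 libraries were all batch 2, so their batch term rests on the other treatments. The standard error was taken as the log2 fold change over the root of F. On counts simulated with known changes the same steps were tested first. The ratio of outside to overlapping reads is given as values with an SD and no p-value. Sums and ratios used Python 3.11.15 with numpy 2.4.6, pandas 2.3.3 and scipy 1.17.1, and figures matplotlib 3.10.9.

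Depth was 900063 to 1981582 reads in GR peaks and 6829787 to 15695771 reads in H3K27ac peaks per library, so that a median outside peak of 6 reads is counted with wide error. Gene spans, promoter windows and microRNAs came from RefSeq GRCm38.p6; windows on chromosome 18 were left out. Named peaks were the 12 with most reads; for each comparison the 10 highest and 10 lowest log2 fold changes among called outside peaks, or the 5 smallest p-values where none was called; up to 4 with the smallest p within 50 kb of each gene list; and the 3 longest. Peaks shown beyond that were chosen after their values were seen. A peak counted for a gene list only where its nearest named protein-coding gene was on that list. Alternatives were DESeq2 1.42.0 and its size factors, library totals, scaling by overlapping peaks, no filter on low counts, no batch term, each batch alone, a replicate block, the filtered column, other distances, and leaving out each replicate. Scaling by overlapping peaks, and leaving out Cort replicate 4 with library totals, were chosen after the data were seen. In the H3K27ac libraries same-numbered replicates deviated from their group means together, with r of 0.257 to 0.654 over 18 pairs. The 36 differently numbered pairs had r of −0.428 to 0.034. Deviations within a group cancel out, so this second range largely follows from the first and is no separate evidence. From the first range the numbers were treated as pairs, and the blocked counts are given.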

Additional observations from a re-analysis of the deposited data

Results flagged for a closer look

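Among 72 sets of 4 GR libraries examined for 1 library far from the rest, 2 had such a library. Chance gives about 1 in 20 for separate sets, so the number of flagged sets alone does not exceed chance. Both flagged sets concern Cort replicate 4, on related measures, so they are not separate cases. The count therefore cannot decide whether Cort replicate 4 is unusual, and the size of its distance is given instead. With the top 1% of GR peaks set aside it held 178058 reads in outside peaks, against 39727, 42214 and 42960 in the other Cort libraries, and its distance from the nearest of them was 0.977 of the whole range. Its median outside peak held 26 reads, against 2 to 5 in the other 14 libraries of all treatments. On this measure its distance from the nearest other Cort library made up the whole range (1). Its total reads in GR peaks lay within the range of the other libraries, and the share of its reads in the 12 strongest outside peaks was the lowest of all, at 664919 RPM (reads per 1000000 reads in GR peaks) against 781655 to 863620 in the other 14 libraries.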

How the results depend on the processing

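The outside peaks called for Cort, Dex and steroid with TMM numbered 645, 711 and 843. They were 419, 444 and 498 among peaks marked TRUE and 226, 267 and 345 among those marked FALSE. Library totals gave 72, 79 and 100, no filter on low counts 147, 309 and 464, batch 1 alone 340, 399 and 533, and batch 2 alone 0 of each (736, 565 and 649 at an unadjusted p under 0.05, edgeR). Without Cort replicate 4 and with library totals they were 54, 88 and 103. These counts, and those below unless a direction is given, join both directions. With library totals 56 of the 100 steroid calls were higher, beside 1981 higher and 48 lower of all 5183 tested peaks. With TMM 19 of the 843 were higher, beside 816 higher and 998 lower of 5183. Omitting the batch term with TMM gave 357 for Cort. Leaving out 1 replicate at a time gave 269 to 769 for Cort, 426 to 706 for Dex and 489 to 1028 for steroid, the lowest each time without vehicle replicate 4. Without Cort replicate 3, 52 outside peaks were higher with Cort, 39 of them with over 50% of their reads in Cort replicate 4. For IL4 the 0 called became 3 with DESeq2 and 8 without Cort replicate 4 with library totals, where the cause was not tested. A replicate block gave 233 for IL4, but it set IL4 replicates 1 and 2 beside batch 1 libraries. There IL4 and batch cannot be told apart. Whether GR replicate numbers pair libraries within a batch could not be decided. Deviations of same-numbered GR libraries had r of 0.071 to 0.187 in batch 1 and −0.197 to 0.117 in batch 2. With 2 libraries per treatment and batch, each different-number r is the same value with its sign reversed. The block gave 584, 664 and 769 for Cort, Dex and steroid.

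The ratio difference for Cort was −0.65 with all peaks, −1.12 in batch 1, −1.15 in batch 2, −1.14 with a replicate block and −1.31 to −0.87 leaving out 1 library; for Dex it was −1.18, −1.65, −1.41 and −1.54 to −1.15 in batch 1, batch 2, the block and leaving out 1 library. For IL4, −0.13 turned to 0.00090 with all peaks and 0.13 both with the block and without vehicle replicate 4. It ran from −0.26 to 0.13 leaving out 1 library. The IL4 block paired replicates 1 and 2 across batches. H3K27ac peaks nearest outside peaks numbered 32 called for Cort and 119 for Dex: 13 and 57 within 5 kb, 231 and 406 with the replicate block, 57 for Cort with DESeq2, and 9 to 36 and 45 to 137 leaving out 1 library. These H3K27ac counts fell by over 1.5 times without vehicle replicate 2 (10 and 61) or 3 (9 and 45), without Cort replicate 1 (13), Cort replicate 3 (16) or IL4 replicate 1 (21) for Cort, and without Dex replicate 1 (45) or 3 (50) for Dex.

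Over 71 named peaks and 1544 alternative values, 1268 kept direction and side of the threshold, 238 fell below it, 32 rose past it and 6 changed sign. These were the steroid log2 fold change at chr3:85176941-85177068 without Cort replicate 4 (−0.36; up to 1.28 without other libraries), at chr19:20373449-20373731 near Anxa1 with library totals (0.22, and 0.22 also without Cort replicate 4), at chr11:83525779-83526042 near Ccl5 (0.014 without Cort replicate 4, library totals) and at chr13:75645054-75645199 (0.095 with library totals, and 0.099 also without Cort replicate 4). The 2389 outside peaks left out by the filter had a median of 4.33 reads per library, and Cort replicate 4 held over 50% of the reads of 1240 of them; depth limits what can be called among them.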
